A study of Homo sapiens with 6 samples.

Results

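Interleukin-1, interleukin-24 and colony-stimulating factor genes were followed in A549, a cell line grown from a human lung adenocarcinoma and labelled epithelial. The set was chosen by symbol and holds 9 of the 62700 genes in the table: the ligand genes IL1A, IL1B and IL18, the receptor genes IL1R1 and IL1RAP, the IL-10 family cytokine gene IL24, and the colony-stimulating factor genes CSF1, CSF2 and CSF3. All 9 were found. They were picked with the difference between the guides already known, so their differences are given as a description, without p-values. Cells given a control guide (sgControl, genotype label WT) made up 3 libraries, and knockout derivatives made with a guide against H2AC19, a histone H2A gene, made up the other 3 (sgH2AC19). All were grown in the same serum-containing medium with no further treatment named. The labels do not say whether the edited cells were a clone or a pool, nor whether the replicates were separate cultures, so the spread between libraries may be technical.

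IL-1α and IL-1β bind the receptor IL1R1, which recruits the accessory chain IL1RAP and signals through MYD88 and IRAK kinases to NF-kB and MAP kinases. IL-1β and IL-18 are made as precursors that need cleavage, classically by caspase-1 in the inflammasome. IL-24 acts on epithelial cells through receptors built from IL20RB with IL20RA or IL22RA1. CSF1, CSF2 and CSF3 encode M-CSF, GM-CSF and G-CSF, growth factors of macrophages and granulocytes that epithelial and tumour cells can secrete. GM-CSF is needed in the lung for mature alveolar macrophages.

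Levels are in FPKM, fragments scaled by gene length and by library total. The library totals, worked out from steps between low FPKM values, ranged from 35681162 to 45738439 reads. H2AC19 and its near-identical copy H2AC18 were listed at 0 in all 6 libraries, so the target checks neither the editing nor the labels. All 6 epithelial markers were called: KRT8 (233 ± 12.5 to 304 ± 13.1 FPKM), KRT18, EPCAM and CDH1 higher, and KRT19 (59.9 ± 2.22 to 43.5 ± 2.66 FPKM) and CLDN4 lower. CLDN4 reached 1 FPKM only in sgControl, and so entered the test only through the group where it is high. Over all 12871 genes tested 23.1% were called. Of 6 markers of alveolar type II cells, the lipid transporter gene ABCA3 was at 4.51 to 6.03 FPKM over all libraries and was not called, and the other 5, SFTPC among them, were at 0.123 FPKM or less. Without sgH2AC19 replicate 3, its highest library, ABCA3 was called lower (log2 fold change −0.19). Summed over 13 leukocyte markers, the level was 4.85 to 5.65 FPKM in sgControl and 4.10 to 5.62 in sgH2AC19, with 4 of the markers at 0 in every library. Of the 2 tested, ITGAX was called lower (2.16 ± 0.169 to 1.15 ± 0.316 FPKM). CD14 (1.94 ± 0.306 to 2.60 ± 0.516 FPKM) was not called. The sum of 7 endothelial markers was 0.269 FPKM or less. That of 7 fibroblast markers was 4.47 to 5.03 and 6.63 to 7.14 FPKM, with LUM the largest share in each library and COL1A2 at 0.00518 FPKM or less. Of the 3 tested, LUM (2.81 ± 0.299 to 3.97 ± 0.434 FPKM) and COL1A1 (0.641 ± 0.0641 to 1.39 ± 0.124) were called higher and THY1 was not called. COL1A1 reached 1 FPKM only in sgH2AC19. The part of such markers in the results below was not tested. On the second principal component (18.2% of the variance) sgH2AC19 replicate 3 lay at −16.0 and replicates 1 and 2 at 8.09 and 8.32.

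The promoters of IL24, CSF2, IL1A and IL1B are shown because these are the ligand genes whose sgH2AC19 libraries all lay below the sgControl libraries. Each line holds the 250 bases before an annotated start, 5′ to 3′, from RefSeq (GRCh38.p14), with motif matches in capitals. The promoter table held 6 of the 9 genes, and IL18, CSF1 and CSF3 had no entry.
IL24 (chr1:206897193-206897442, plus strand): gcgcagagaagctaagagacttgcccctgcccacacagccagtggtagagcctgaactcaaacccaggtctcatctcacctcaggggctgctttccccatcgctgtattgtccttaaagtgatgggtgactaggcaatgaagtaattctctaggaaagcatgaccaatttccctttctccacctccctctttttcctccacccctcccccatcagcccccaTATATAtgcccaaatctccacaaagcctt
CSF2 (chr5:132073539-132073788, plus strand): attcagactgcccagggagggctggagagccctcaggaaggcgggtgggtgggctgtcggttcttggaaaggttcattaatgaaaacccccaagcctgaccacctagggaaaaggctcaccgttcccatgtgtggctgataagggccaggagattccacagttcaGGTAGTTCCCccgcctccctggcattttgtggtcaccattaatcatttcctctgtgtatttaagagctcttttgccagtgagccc
IL1A (chr2:112784494-112784743, minus strand): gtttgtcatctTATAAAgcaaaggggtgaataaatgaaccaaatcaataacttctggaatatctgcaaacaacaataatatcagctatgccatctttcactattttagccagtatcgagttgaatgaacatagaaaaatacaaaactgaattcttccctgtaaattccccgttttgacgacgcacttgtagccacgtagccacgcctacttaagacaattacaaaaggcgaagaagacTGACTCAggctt
IL1B (chr2:112836780-112837029, minus strand): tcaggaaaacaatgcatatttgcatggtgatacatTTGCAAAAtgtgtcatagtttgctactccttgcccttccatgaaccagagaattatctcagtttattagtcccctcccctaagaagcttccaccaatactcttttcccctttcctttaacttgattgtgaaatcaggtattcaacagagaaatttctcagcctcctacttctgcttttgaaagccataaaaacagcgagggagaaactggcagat

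Motifs were searched on both strands. IL1A had 2 starts in the table, and the first is shown. The AP-1 word TGANTCA was found in it, 12 to 6 bases before the start, and in 6.57% of all 35116 promoter windows. The C/EBP word TTGCNNAA was found in IL1B, 215 to 208 bases before the start, and in 9.05% of windows. A loose NF-kB word, GGG and CC with any 5 bases between them, was found on the reverse strand of CSF2, 85 to 76 bases before the start, and in 54.4% of windows. The TATA word TATANA was found in IL24, 29 to 24 bases before the start, in IL1A at 239 to 234 bases, and in 17.7% of windows. No word was shared by all 4 promoters. These matches are letters in a window and not binding sites.

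In the sgControl libraries the 9 genes covered a wide range of levels. IL18 was highest, at 54.6 ± 1.98 FPKM (SD, n = 3), above 98.3% of the genes detected in any library. CSF1 followed at 8.34 ± 0.391, IL24 at 6.42 ± 0.717, IL1R1 at 4.54 ± 0.205 and IL1RAP at 3.59 ± 0.255 FPKM, and no 2 of these 5 genes had overlapping libraries. CSF2 (1.95 ± 0.822) and IL1A (1.59 ± 0.435) overlapped each other, as did IL1B (0.459 ± 0.0863) and CSF3 (0.264 ± 0.0945). In sgH2AC19 the order changed: IL1R1 came next to IL18, with libraries that overlapped those of CSF1, and IL24 ranked below IL1RAP.

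**Figure D1:**
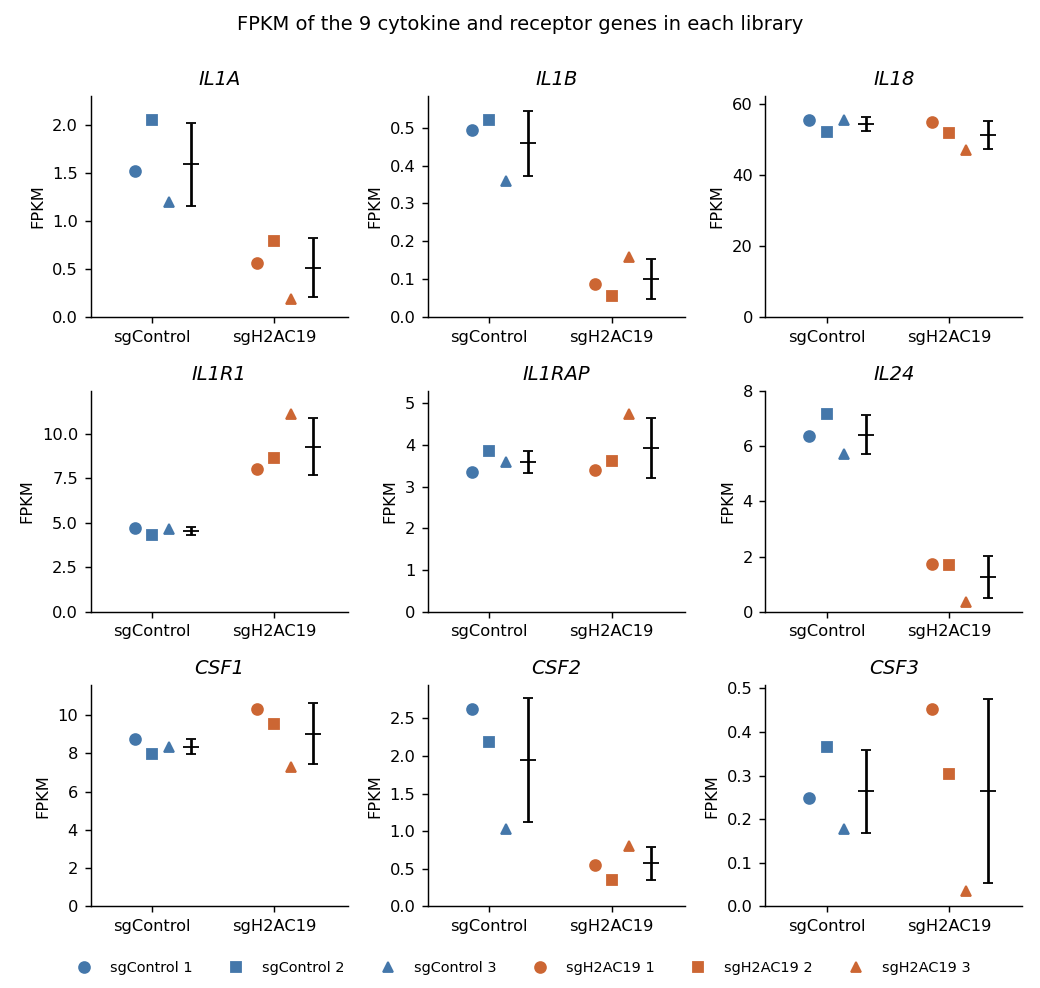
FPKM of each gene (vertical axes, each from 0) in the 3 sgControl and 3 sgH2AC19 libraries, one symbol per replicate, with the mean and SD as black bars. IL24, IL1A, IL1B and CSF2 lie lower and IL1R1 higher in every sgH2AC19 library, and the other 4 genes overlap.

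The genes did not move as a block. The test took genes that reached 1 FPKM in 3 or more of the 6 libraries, and 7 of the 9 did. Of these, 3 were called lower in sgH2AC19 (IL24, IL1A and CSF2), 1 was called higher (IL1R1), and 3 were not called (IL18, IL1RAP and CSF1). A gene was called when limma on log2(FPKM + 1) gave a Benjamini-Hochberg adjusted p below 0.05, and among all 12871 genes tested 23.1% were called, 12.0% higher and 11.0% lower. The groups did not overlap for 4 of the 7, against 43.2% of all genes tested. IL1A and CSF2 passed that filter through their sgControl libraries alone. IL1B and CSF3 were below 1 FPKM in all 6 libraries and were not tested. In bulk RNA, fewer cells that express a gene and less RNA per cell cannot be told apart.

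Among the ligands, IL1A on chromosome 2 (ENSG00000115008, GENCODE 29, GRCh38, 112773915 to 112784590, minus strand) was at 1.52, 2.06 and 1.20 FPKM in sgControl replicates 1 to 3 and at 0.564, 0.792 and 0.183 in sgH2AC19 replicates 1 to 3. All sgH2AC19 libraries were below all sgControl libraries, and replicate 3 was lowest. The ratio of the means was 3.10-fold lower, and the log2 fold change, computed on log2(FPKM + 1) and so too small for genes this low, was −0.78 (SE 0.181). These values rest on 98 to 164 reads per sgControl library and 14 to 57 per sgH2AC19 library.

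IL1B, the neighbouring gene (ENSG00000125538), was at 0.495, 0.521 and 0.360 FPKM in sgControl and at 0.0872, 0.0559 and 0.157 in sgH2AC19. The groups did not overlap, and here replicate 3 was the highest of the sgH2AC19 libraries. The means differed 4.58-fold, on 44 to 62 and 6 to 18 reads. With no filter on low values, where 4.20% of 36938 genes were called in either direction, IL1B was called lower (log2 fold change −0.41, SE 0.0692), and IL1A and CSF2 were not called.

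IL18 (ENSG00000150782) was at 55.7, 52.3 and 55.7 FPKM in sgControl and at 55.0, 51.9 and 47.2 in sgH2AC19. The groups overlapped, with a log2 fold change of −0.09 (SE 0.0628), and sgH2AC19 replicates 2 and 3 lay below the sgControl range while replicate 1 lay within it. The most abundant ligand gene of the set did not pass the test, and it rests on 4666 to 6552 reads per library.

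The receptor gene IL1R1 (ENSG00000115594, chromosome 2, 102064544 to 102179874, plus strand) was at 4.68, 4.31 and 4.63 FPKM in sgControl and at 8.05, 8.67 and 11.1 in sgH2AC19. Every sgH2AC19 library was above every sgControl library, and replicate 3 was highest. The mean was 2.04-fold higher (log2 fold change 0.88, SE 0.105), on 1209 to 1339 and 2204 to 3006 reads. Its partner IL1RAP (ENSG00000196083), the accessory chain without which IL1R1 does not signal, was at 3.34, 3.85 and 3.58 FPKM in sgControl and at 3.40, 3.63 and 4.74 in sgH2AC19. These groups overlapped (log2 fold change 0.09, SE 0.104), and the value was −0.02 without sgH2AC19 replicate 3, whose level was the highest of the 6.

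**Figure D2:**
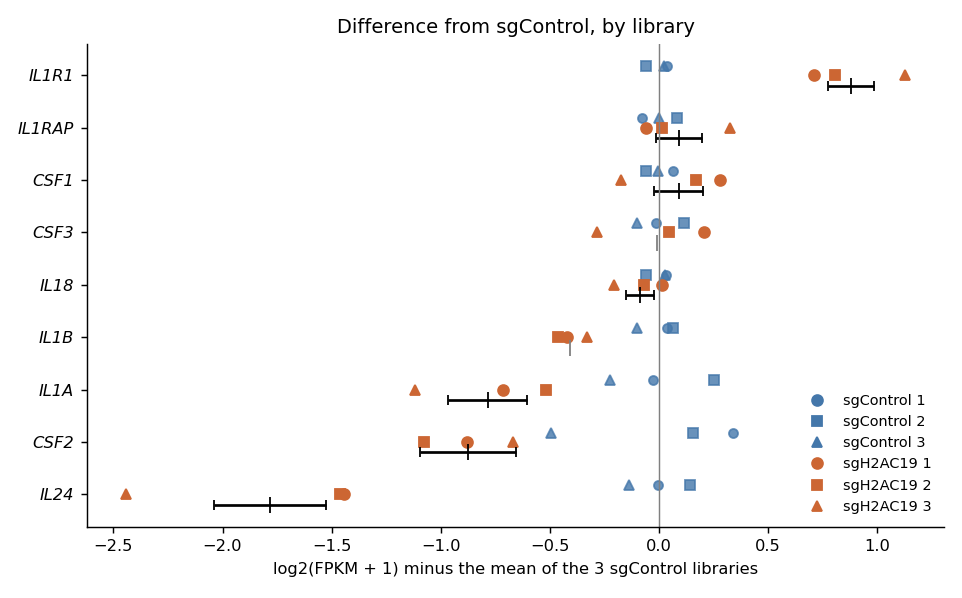
Each library's log2(FPKM + 1) minus the mean of the sgControl libraries (horizontal axis), by gene. Black bars give the limma log2 fold change with its SE for the 7 genes tested and grey ticks the mean difference for IL1B and CSF3, and IL24 spans the widest range, with replicate 3 lowest.

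Other ligands of the IL-1 family were low. IL33, an alarmin, was at 0.957 ± 0.0524 and 0.980 ± 0.0567 FPKM (log2 fold change 0.02, adjusted p = 0.898), and the IL-18 binding protein gene IL18BP, which encodes a soluble IL-18 inhibitor, was at 1.56 ± 0.142 and 1.82 ± 0.169 (0.14, adjusted p = 0.235). IL1RN, the IL-1 receptor antagonist gene, was at 0.0813 FPKM or less in each library, and IL36A and IL1F10 were listed at 0 in all. Of the 9 further ligands and antagonists 2 passed the filter and 0 were called. Of the 8 further receptors, only SIGIRR, an inhibitory receptor of the family, passed it. SIGIRR was at 3.05 ± 0.214 FPKM in sgControl and 2.51 ± 0.128 in sgH2AC19, with groups that did not overlap but a difference that was not called (−0.21, adjusted p = 0.0548). The decoy receptor gene IL1R2, next to IL1R1 on chromosome 2, was at 0.282 to 0.326 FPKM in sgControl and 0.267 to 0.569 in sgH2AC19. IL18R1 was at 0.557 to 1.05 FPKM over all libraries and its partner IL18RAP at 0.0378 or less.

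IL24 (ENSG00000162892, chromosome 1, 206897443 to 206904139, plus strand) had the widest range of the 9 in log2(FPKM + 1). It was at 6.37, 7.16 and 5.73 FPKM in sgControl and at 1.72, 1.69 and 0.359 in sgH2AC19. The groups were far apart, and within sgH2AC19 replicate 3 stood well below replicates 1 and 2, which were alike. The means differed 5.11-fold (log2 fold change −1.78, SE 0.257), and without replicate 3 the log2 fold change was −1.45. The reads were 457, 560 and 460 against 156, 119 and 27.

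IL24's relatives in the same chromosome 1 cluster were hardly detected, with IL10 at 0 in all libraries, IL19 at 0.0443 FPKM or less and IL20 at 0.234 or less. Of its receptor subunits, IL20RB was at 5.51, 5.84 and 4.48 FPKM in sgControl and at 6.21, 6.84 and 3.63 in sgH2AC19 (log2 fold change 0.03, adjusted p = 0.92, and 0.27 without sgH2AC19 replicate 3). IL22RA1 was at 1.18 ± 0.215 and 1.04 ± 0.157 FPKM (−0.09, adjusted p = 0.544), and IL20RA at 0.0233 or less. The type III interferon receptor gene IFNLR1 was at 1.68 ± 0.289 and 1.17 ± 0.0727 FPKM and was not called (−0.30, adjusted p = 0.0578). It was called lower without sgControl replicate 3 (−0.40, adjusted p = 0.0304) and with voom in limma on the recovered reads (−0.52, adjusted p = 0.0237). None of the 3 genes of this list that were tested, of 12, was called.

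The colony-stimulating factors differed among themselves. CSF2 (ENSG00000164400, chromosome 5, 132073790 to 132076170, plus strand) was at 2.63, 2.18 and 1.03 FPKM in sgControl and at 0.555, 0.356 and 0.802 in sgH2AC19. The groups did not overlap, though sgControl replicate 3 came near sgH2AC19 replicate 3. The means differed 3.41-fold (log2 fold change −0.88, SE 0.218), on 33 to 75 and 10 to 24 reads, and the call was lost without sgH2AC19 replicate 1 (−0.87) or 2 (−0.77).

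CSF1 (ENSG00000184371) was at 8.74, 7.96 and 8.31 FPKM in sgControl and at 10.3, 9.50 and 7.27 in sgH2AC19. Replicates 1 and 2 of sgH2AC19 lay above the sgControl range and replicate 3 below it, giving a log2 fold change of 0.09 (SE 0.112). Without replicate 3 CSF1 was called higher (0.22), and without sgH2AC19 replicate 1 the value was −0.0024. CSF3 (ENSG00000108342) was at 0.248, 0.365 and 0.178 FPKM in sgControl and at 0.453, 0.303 and 0.0356 in sgH2AC19. Its groups overlapped, and the value of sgH2AC19 replicate 3 rests on 3 reads against 46 and 24 in replicates 1 and 2.

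Receptor genes for these factors were listed at low values or at 0. CSF2RA was at 0 in all 6 libraries, as was IL3RA. Each of these symbols has 2 rows in the table, and whether reads there were left unassigned was not tested. CSF2RB was listed at 0.00876 FPKM or less, CSF3R at 0.00521 or less, and CSF1R at 0.0934 or less. IL34, the other CSF1R ligand gene, was at 0.342 FPKM or less. Of 14 genes in the list of receptors, related ligands and signalling 4 passed the filter, 1 rose and 1 fell. KITLG, which encodes stem cell factor, rose from 3.71 ± 0.540 to 5.09 ± 0.382, a log2 fold change of 0.38 (SE 0.0909, adjusted p = 0.0254), a call lost without sgControl replicate 2 or 3 or sgH2AC19 replicate 1 or 2 (adjusted p 0.0714 to 0.0878). The transducer gene STAT5A fell from 1.69 ± 0.0301 to 1.16 ± 0.166 FPKM (−0.32, adjusted p = 0.0287), a call lost without any 1 of the sgControl libraries or sgH2AC19 replicate 2 (0.0652 to 0.0878) or with the replicate number as a block (0.0529). With no low-value filter neither KITLG (0.102) nor STAT5A (0.098) was called. STAT5B was at 6.54 ± 0.169 and 6.46 ± 0.226 FPKM and JAK2 at 2.28 ± 0.166 and 2.20 ± 0.217, neither called.

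**Figure D3:**
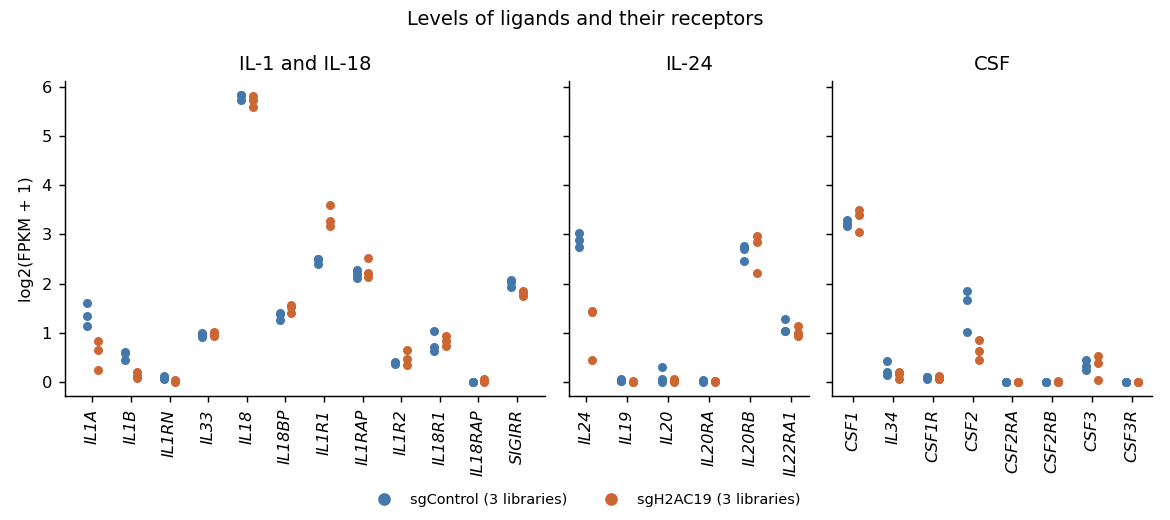
Levels, as log2(FPKM + 1), of ligand and receptor genes of the IL-1 and IL-18, IL-24 and CSF systems, one point per library. IL1R1, IL1RAP, IL20RB and IL22RA1 are detected in every library, whereas the CSF receptor genes and IL20RA lie at or near 0.

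Downstream of IL1R1 most tested genes were not called. Of 18 genes for IL-1 receptor signalling proteins 16 were tested, 2 rose, 3 fell and 11 were not called. The share called was 31.2% and the median log2 fold change −0.07, against 23.1% and −0.01 over all genes tested. MYD88, the adaptor of the receptor, fell from 6.77 ± 0.220 to 5.14 ± 0.504, a log2 fold change of −0.34 (SE 0.0687, adjusted p = 0.0135). MAP3K8, a kinase that links the receptor to ERK, rose from 7.95 ± 0.141 to 10.3 ± 0.213 FPKM (0.34, SE 0.0429, adjusted p = 0.0025). The TAK1-binding protein gene TAB1 rose by 0.36 (adjusted p = 0.0208), while its relative TAB3 went the other way at −0.19 (0.026) and the inhibitory adaptor gene TOLLIP, named after its value was seen, was at −0.21 (0.0473). MYD88 lost its call without sgControl replicate 2 (0.0545) or with no low-value filter (0.053). TAB1 lost its call without sgControl replicate 1 or 2 or sgH2AC19 replicate 1 or 2 (0.0624 to 0.0669), TAB3 in the 5 fits that left out a library other than sgH2AC19 replicate 3 (0.0589 to 0.103) and TOLLIP in the 5 that left out one other than sgH2AC19 replicate 1 (0.0789 to 0.137). With the replicate number as a block TAB3 (0.0568) and TOLLIP (0.0562) were not called either. With no low-value filter TAB1 (0.083), TAB3 (0.0585) and TOLLIP (0.134) were not called. TOLLIP was also not called with libraries scaled to their upper quartile (0.0728).

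Most tested genes for processing and release of IL-1 and IL-18 were not called. Of 19 genes 13 were tested, 4 fell, 1 rose and 8 were not called. The share called was 38.5% and the median log2 fold change −0.09, against 23.1% and −0.01 over all genes tested. ANXA2, a calcium-dependent membrane-binding protein gene, fell from 181 ± 1.98 to 136 ± 7.89, a log2 fold change of −0.41 (SE 0.0489, adjusted p = 0.0021). CAPN2, a calpain protease gene of the family that cleaves the IL-1α precursor, fell from 70.1 ± 1.00 to 55.1 ± 1.90 FPKM (−0.34, SE 0.0416, adjusted p = 0.0023), and CAPN1 was at −0.16 (0.0328). NINJ1, which encodes a protein of plasma membrane rupture, rose by 0.33 (0.0441). CAPN1 lost its call without any 1 of the sgControl libraries or sgH2AC19 replicate 2 (0.0875 to 0.111), and NINJ1 without sgControl replicate 1 or 3 or sgH2AC19 replicate 1 or 2 (0.0647 to 0.13). With the replicate number as a block neither CAPN1 (0.0625) nor NINJ1 (0.0686) was called. Nor were they with no low-value filter (0.0554 and 0.152) or with libraries scaled to their upper quartile (0.069 and 0.0916). PYCARD, the inflammasome adaptor gene, named after its value was seen, fell from 1.38 ± 0.255 to 0.854 ± 0.117 FPKM (−0.35, 0.0474). It passed the filter only through sgControl and lost its call without sgH2AC19 replicate 1 (0.0933), 2 (0.0675) or 3 (0.0882). With no low-value filter (0.157) or a pseudocount of 0.1 (0.0515) PYCARD was not called either. The inflammasome sensor gene NLRP3 was listed at 0 in all libraries, and CASP1 was at 0.128 to 0.339 FPKM.

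Cytokine mRNAs are often short-lived through AU-rich words in their 3′ untranslated regions. In the longest annotated 3′ untranslated region of each gene (GENCODE 29) the nonamer ATTTATTTA occurred 4 times in CSF2 and 2 times in IL1B and 0 times in the other 7 genes, whereas 7.80% of 10627 tested genes held it. The pentamer ATTTA occurred 24.9 times per kilobase in CSF2, 9.79 in IL1B, 8.17 in CSF3 and 4.33 in IL1A, against a median of 1.75 over those genes, and 2.59 in IL24, 2.57 in IL1R1 and 0 in IL18. CSF1 had 1.85 and IL1RAP 1.27.

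Of 19 genes for proteins that bind such words or degrade cytokine mRNAs, all were tested, 2 fell, 1 rose and 16 were not called. The share called was 15.8% and the median log2 fold change 0.03, against 23.1% and −0.01 over all genes tested. ZFP36 (tristetraprolin), which binds AU-rich words and promotes decay, fell from 37.6 ± 2.82 to 25.0 ± 2.35, a log2 fold change of −0.58 (SE 0.0794, adjusted p = 0.0036), and every sgH2AC19 library was below every sgControl library. RC3H2 (roquin-2), which binds stem-loops in cytokine mRNAs, fell by 0.30 (adjusted p = 0.0075).

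Genes that IL-1 induces in epithelial cells moved unevenly. Of 30 listed genes 24 were tested, 12 fell, 1 rose and 11 were not called. The share called was 54.2% and the median log2 fold change −0.39, against 23.1% and −0.01 over all genes tested. BIRC3, an inhibitor of apoptosis, was at 26.0 to 27.8 FPKM in sgH2AC19 against 50.1 to 57.1 in sgControl (−0.98, SE 0.0574, adjusted p = 0.00024). The chemokine gene CXCL3 was at −1.41 (0.0025) and the collagenase gene MMP1, which passed the filter only through sgControl, at −1.74 (0.00027). MMP10, also among the genes that fell, passed the filter in the same way. Both thus entered the count only through the group where they are high. The complement gene C3 rose from 20.1 ± 0.166 to 28.9 ± 2.10 FPKM (0.51, adjusted p = 0.0018). Some of the lower calls were less stable. CCL2 (adjusted p 0.054 to 0.14) and TNFRSF9 (0.0514 to 0.138) lost the call in 5 fits that left out 1 library. CCL20 (0.0586 to 0.0679) and NFKBIZ (0.0555 to 0.065) lost it in 3 and NFKBIA (0.0516) in 1. With no low-value filter CCL2 (0.159), TNFRSF9 (0.173), CCL20 (0.104) and NFKBIZ (0.0605) were not called either. CCL2 was also not called with voom (0.0505) or the replicate number as a block (0.0905), nor TNFRSF9 with a pseudocount of 0.1 (0.0589). PLAU (0.0514) and TNFAIP3 (0.0757) lost their calls only with no low-value filter. These genes are named for their lost calls.

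**Figure D4:**
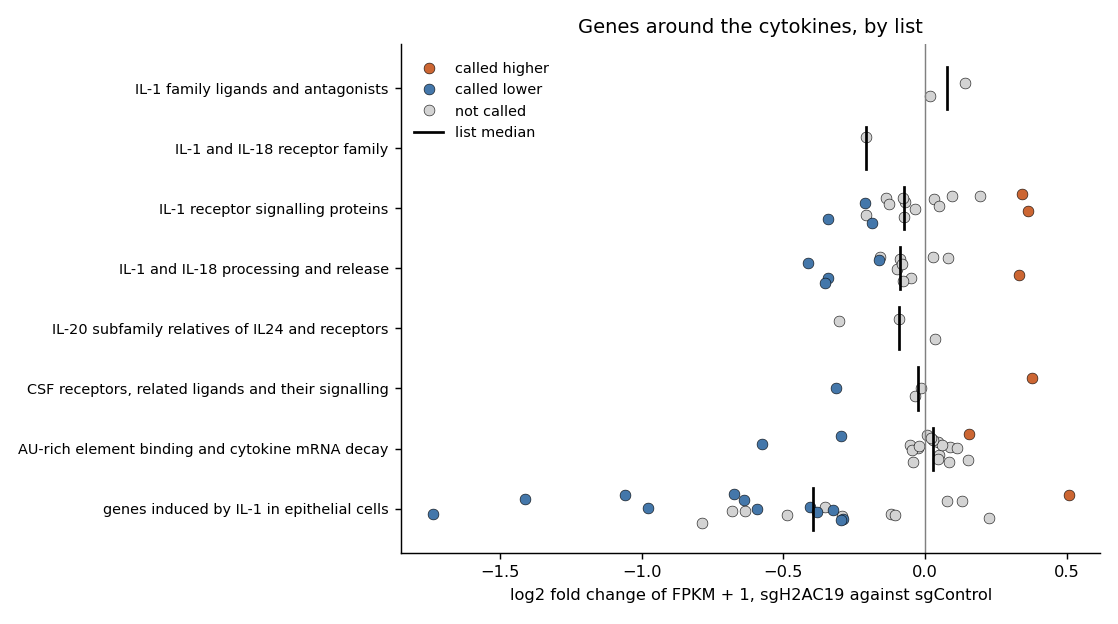
Log2 fold change on the FPKM + 1 scale (horizontal axis) of each tested gene in the 8 lists around the cytokines, with list medians as black lines. Genes induced by IL-1 lie furthest to the left, with a median of −0.39, and the other lists centre between −0.21 and 0.08.

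In this gene group replicate 3 of sgH2AC19 did not lie to 1 side of replicates 1 and 2. Of the 9 genes it was the lowest sgH2AC19 library for 5 (IL1A, IL18, IL24, CSF1 and CSF3) and the highest for 4 (IL1B, IL1R1, IL1RAP and CSF2). Over all genes tested it was the lowest of the sgH2AC19 libraries for 6063 of 12871. Its values for IL1B and CSF2 rest on 18 and 24 reads. Replicate 3 minus the mean of replicates 1 and 2 was −0.99 for IL24 and 0.37 for IL1R1, both in log2(FPKM + 1). Among the 24 tested genes that IL-1 induces it was the lowest of all 6 libraries for 21, and over all genes tested it was the lowest for 27.6%. PTGS2, the inducible cyclooxygenase gene, was at 57.5, 56.9 and 31.8 FPKM in the sgH2AC19 replicates, in order, and at 36.3 to 44.8 in sgControl. SOD2, the mitochondrial superoxide dismutase gene, was at 60.3, 58.5 and 30.2 FPKM and at 41.5 to 48.9 in sgControl. Both were named after their values were seen, and both were called higher without replicate 3 (PTGS2 0.50, adjusted p = 0.0079, and SOD2 0.40, adjusted p = 0.0092). Without replicate 3 the counts in this list were 15 lower and 4 higher of 24, and 5 of the 7 tested cytokine and receptor genes were called, where 27.0% of all genes tested were. What set replicate 3 apart was not tested.

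**Figure D5:**
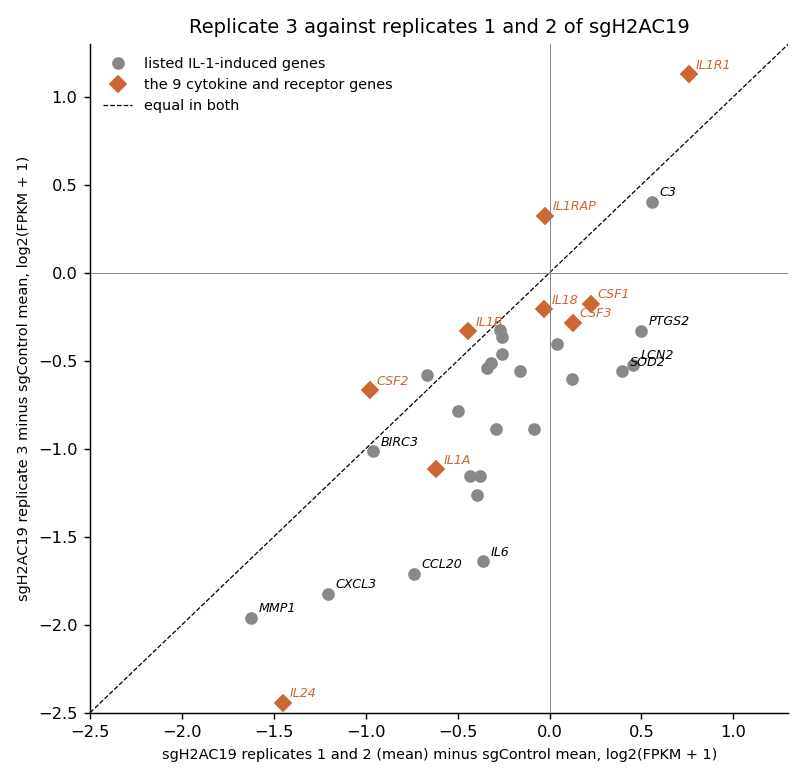
Difference from the sgControl mean in log2(FPKM + 1) for the mean of sgH2AC19 replicates 1 and 2 (horizontal axis) and for replicate 3 (vertical axis), for the 9 cytokine and receptor genes and the 24 tested genes induced by IL-1. Most listed genes lie below the dashed line of equal differences, as does IL24, and IL1R1, IL1RAP, IL1B and CSF2 lie above it.

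The nearest protein-coding genes on each side were read from RefSeq (GRCh38.p14). IL1A and IL1B are each other's neighbours, and all sgH2AC19 libraries lay lower for both. CKAP2L beside IL1A was at 4.31 ± 0.159 and 4.58 ± 0.689 FPKM (log2 fold change 0.07, adjusted p = 0.623), and P4HA2 beside CSF2 at 8.35 ± 0.597 and 7.27 ± 1.28 (−0.19, adjusted p = 0.254). IL3, on the other side of CSF2, was listed at 0 in all libraries, and PIGR beside IL24 was at 0.0449 FPKM or less. PSMD3 and MED24 beside CSF3 and SDHD beside IL18 were not called. TEX12, TMEM207, GMNC, IL37, IL1RL2 and EPS8L3 were too low to be tested, and EPS8L3 beside CSF1 was at 0.241 to 0.444 FPKM in sgControl and 0.132 to 0.204 in sgH2AC19, with no overlap. AHCYL1 beside CSF1 rose from 24.4 ± 0.271 to 28.4 ± 0.794 FPKM (0.21, adjusted p = 0.0119).

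Likeness of profiles was measured as the root mean square difference in log2(FPKM + 1) over the 6 libraries after each gene's own mean was taken off, among 12041 named genes tested. Nearest to IL24 were TMEM158 (0.144), CXCL5 (0.208) and MMP1 (0.233), and CXCL5 ranged from 628 to 681 FPKM in sgControl and from 166 (replicate 3) to 294 in sgH2AC19. Nearest to IL1R1 were SCARA3 (0.0589), HSDL2 (0.0603) and the pseudogene TPM4P2 (0.0673), and nearest to IL1A were RAB39B (0.0825), GADD45A (0.106) and TNFRSF9 (0.118). CSF2 had no profile nearer than that of the pseudogene MT1XP1 (0.194), followed by ITGB5-AS1 (0.219) and RPL26P36 (0.227). The profiles of IL18, IL1RAP and CSF1 spanned 0.24, 0.40 and 0.45 in log2(FPKM + 1), and 3775, 442 and 562 genes lay within 0.1 of them, the nearest being BLCAP, SMC2 and CLBA1. For IL24, IL1R1, IL1A and CSF2 most of this likeness is the difference between the same 2 groups. The groups overlapped for IL18, IL1RAP and CSF1. Of the 6 libraries sgH2AC19 replicate 3 was the lowest for IL18, BLCAP, CSF1 and CLBA1 and the highest for IL1RAP and SMC2. None of this likeness adds separate evidence.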

How the data were processed

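Per the labels' protocols, total RNA went into a SMARTER mRNA kit. The deposited table holds FPKM computed by the authors, 1 column per library, per the file headers. An aligner, counter or annotation is not given in the sources used here. The builds listed, GRCm38 and mm10 per the submitters' processing notes, belong to mouse, although all 62700 gene IDs are human Ensembl IDs and matched the symbol table. Columns named sgNC and sgH2AC were taken as sgControl and sgH2AC19.

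A gene was tested if 3 or more libraries reached 1 FPKM. The groups were compared on log2(FPKM + 1) in limma 3.58.1 under R 4.3.3, using its trend option, two-sided, with Benjamini-Hochberg adjustment over all genes tested and a threshold of 0.05. SDs are of FPKM over 3 libraries and SEs those of the fit. Reads were recovered from whole multiples in the FPKM, within 0.001 reads at the smallest fitting gene length, for 12870 of 12871 tested genes. Genes at 2 reads outnumbered those at 1 read in each library, and whether mates were counted singly was not tested, so fragments may be fewer than reads. FPKM do not correct for composition.

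The 9 genes and all lists were chosen with earlier results of these data known. Named were the 9 genes, every tested gene of the 4 ligand and receptor lists, up to 4 called genes with the smallest adjusted p of each other list, the 3 nearest profiles of each tested member and its nearest coding neighbours. A called gene of the mRNA decay list is not reported here. The fit was tested on simulated data. Alternatives were 2 scalings, another pseudocount, 2 other filters, voom on recovered reads, a replicate block and leaving out each library. Tables and plots were made in Python 3.11.15 (pandas 2.3.3, numpy 2.4.6, matplotlib 3.10.9).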

Additional observations from a re-analysis of the deposited data

How the results depend on the processing

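The count of genes called (2967) ranged from 1513 to 3429 when 1 library was left out and was 1553 with no low-value filter. The balance of directions depended on scaling. In the main fit 1545 genes were higher and 1422 lower, and with libraries scaled to their upper quartile 1058 were higher and 1392 lower. For the cytokine and receptor genes the count of 4 called ranged from 2 to 5 over the same omissions. It was 2 without any 1 sgControl library, because IL1A and CSF2 then failed the filter of 3 libraries at 1 FPKM. For the 129 pathway genes the count of 28 ranged from 12 to 33 and was 12 with no filter, and 11 genes were called in every fit that tested them: ANXA2, BIRC3, C3, CAPN2, CXCL3, LIF, MAP3K8, MMP1, MMP10, RC3H2 and ZFP36. MMP1 and MMP10 passed the filter through sgControl alone and were not tested in the 3 fits without a sgControl library. Among the 7 tested cytokine and receptor genes the direction reversed for 2, neither of them called: IL1RAP, at −0.0241 without sgH2AC19 replicate 3, ranged up to 0.1677, and CSF1, at −0.0024 without sgH2AC19 replicate 1, ranged up to 0.2242 (called) over the libraries left out. Of the 85 values of tested cytokine and receptor genes under the alternatives, 78 kept their direction and their side of the threshold. The 85 leave out IL1A and CSF2 in the 3 fits without a sgControl library, where they were not tested. They include IL18, IL1RAP and CSF1, which were not called in the main fit.

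Same-numbered libraries were not taken as pairs in the main fit, and whether they were pairs was not settled. The correlations of their deviations from the group means were 0.0524, 0.0346 and 0.0602, and each was the highest for its number. As a block, the replicate number lowered the SE from 0.181 to 0.0921 for IL1A and from 0.257 to 0.170 for IL24. For CSF2 it raised the SE from 0.218 to 0.225. With the replicate number as a block 2729 genes, 4 of the 9 cytokine and receptor genes and 25 pathway genes were called, and the block changed no call of the 7 tested. Of the 28 pathway genes 7 lost their call under the block, and CXCL2, CXCL8, NFKB2 and RELB gained one. The lowest levels, such as CSF3 in sgH2AC19 replicate 3 at 3 reads, are limited by depth.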
